A study of Arabidopsis thaliana with 4 samples.

Results

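Cytosolic ribosomes of Arabidopsis join a small 40S and a large 60S subunit, and each protein of the large subunit is encoded by a family of nuclear paralogs. Large-subunit proteins hold the ribosomal RNA in shape, line the tunnel through which the new peptide leaves, bridge to the small subunit and dock processing factors. Mutants in such genes are known in this plant for narrow, pointed leaves, and the ang3 lesion is known to lie in RPL5B, another gene of the large subunit. The genes described here are the 60 loci of the families RPL19 to RPL39, chosen by matching the locus name of each array probe to a fixed list of loci. They were 60 of 25665 loci named on the array and fell into 23 families. Each locus had 1 probe.

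RNA came from shoots of the mutant ang3 and of its control accession Landsberg erecta (Ler). Per the labels the seedlings grew in vitro at 21 °C under 16 h of light after 3 days of cold. The sample labels call the tissue shoot apex at stage 1.02. The series text instead names the green parts of plants at stage 1.03, cotyledons and young leaves included. The 4 two-colour oligonucleotide arrays each compared ang3 with Ler, with ang3 in Cy5 on replicates 1 and 3 and in Cy3 on replicates 2 and 4. Per genotype, 4 replicates with 3 repetitions each were collected. The series text speaks of dye swaps with biological replicates but does not say which arrays share RNA, so each array was counted as 1 replicate, and p-values may in part measure technical spread. Every ratio below is ang3 over Ler on the log2 scale, as the mean of 4 arrays (n = 4) unless an array is named. The number of arrays limits its precision.

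Between 19222 and 21323 of 37478 probes per array and genotype were well above background. The RPL5B probe (At5g39740) had a ratio of -0.04 (SE 0.069; limma adjusted p = 0.70), which gives no check of the labels, and RPL5A (At3g25520) one of 0.26 (SE 0.045; limma adjusted p = 0.018). Of 4 shoot meristem markers, STM and KNAT1 were above background and rose by 0.36 and 0.32, and for WUS and CLV3 no array gave a signal above background. The summed level of these 4 markers ranged from 1487 to 1637 units of normalised intensity in ang3 and from 1195 to 1374 in Ler. Of 4 green leaf markers, RBCS1A, LHCB1.3 and LHCB2.1 fell and PSBO1 did not pass. Their summed level was 154293 to 176346 in ang3 against 176359 to 204191 in Ler. RBCS1A and PSBO1 made up most of this sum, each with a mean log2 level of 16.3 in ang3, against 11.4 for LHCB1.3 and 11.8 for LHCB2.1. Of 6 root markers 5 were measured, with PYK10 and SCR above background on every array and none past the test. Fewer cells of a type and less RNA per cell cannot be told apart in these samples. STM and KNAT1 rose and 3 of the 4 leaf markers fell beside the ribosomal protein genes described next. The part of these markers in those results was not tested.

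The RPL19 to RPL39 genes stood higher in ang3 as a group, by small amounts. Of the 60 loci, 58 passed the filter on dim probes, which asks for a signal well above background on at least 3 arrays in 1 genotype. Of these 58, 45 rose, 0 fell and 13 did not pass at an adjusted p under 0.05 with limma, where 15% of all 20155 genes and unnamed probes tested rose and 11.2% fell. None of the 58 had an unadjusted limma p under 0.05 in the lower direction, against 3716 of all 20155 tested. Nor did any fall under 12 other settings, where 162 to 2412 of all genes fell. The ratios ran from 0.10 to 0.58, with a median of 0.33, or 1.26-fold, against a median of 0.01 over all genes tested. None of the 58 was over 2-fold, but only 137 of all 20155 tested were, so this count does not set the 58 apart. All 58 were above 0 in the mean of the arrays, as were 53.5% of all genes, and 52 were above 0 on 4 of 4 arrays, as were 25% of all genes. A total of 57 lay in the top 25% of all ratios and 41 in the top 10%.

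The count of calls changed most when replicate 3 was left out. Without that array 4 of the 58 genes still passed, in place of 45, and 28 passed without replicate 2, although the median ratio stayed at 0.30 and 0.28. Over all genes the share that rose dropped to 1.86% without replicate 3 and to 5.77% without replicate 2. Of the 45 genes, 11 lost their call under at least 1 of the 8 settings that kept all arrays, as given beside each of them. Under plain median centring without loess, all 58 rose, as did 34.5% of all genes, the median of all genes moved to 0.14, and the genes of the families stood 0.34 above it. That setting also changed the split of all calls, from 57.1% higher to 94.2% higher, and the authors' deposited series table gave 46.8% higher.

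On single arrays the median over the 58 genes was 0.33, 0.37, 0.40 and 0.18 on replicates 1 to 4, while the median over all genes lay between 0.004 and 0.019. Replicate 4 was the array with the lowest ratio for 36 of the 58 genes and replicate 1 for 19. None of the 58 genes lay at or below 0 on replicates 2 and 3, 1 did so on replicate 1 and 5 on replicate 4. Higher ratios were thus seen on each of the arrays, in both dye orientations, with replicate 4 the lowest.

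**Figure D1:**
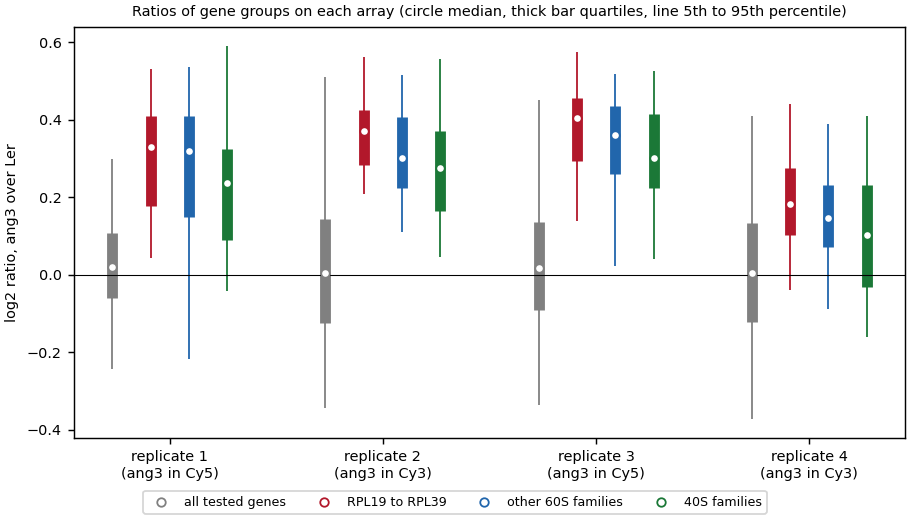
Log2 ratios of ang3 over Ler (y axis) on each of the 4 arrays (x axis) for all tested genes, the RPL19 to RPL39 genes, the other 60S families and the 40S families. Circles are medians, thick bars quartiles and lines the 5th to 95th percentiles over genes. The RPL19 to RPL39 median is 0.33, 0.37, 0.40 and 0.18 on replicates 1 to 4.

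The rest of the cytosolic ribosome was set beside these families from a list of loci. Of 64 measured genes of the other large-subunit families 51 rose, 1 fell and 12 did not pass, and their median ratio was 0.28. Of 87 measured small-subunit genes 53 rose, 0 fell and 34 did not pass, with a median of 0.23. None of these 87 had an unadjusted limma p under 0.05 in the lower direction, against 3716 of all 20155 tested. The median of the RPL19 to RPL39 genes was the highest of the 3 groups on each of the 4 arrays. It was 0.33, 0.37, 0.40 and 0.18 on replicates 1 to 4, against 0.32, 0.30, 0.36 and 0.15 in the other large-subunit families. The share that rose was instead highest in the other large-subunit families, with 79.7% against 77.6% of the RPL19 to RPL39 genes and 60.9% of the small-subunit genes. These differences were not tested. The counts of these groups also changed most without replicate 3, when 2 of the other large-subunit genes and 4 of the small-subunit genes rose.

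No ratio could be measured for 2 of the loci. At1g02830 of the RPL22 family and At3g10950 of the RPL37a family were not well above background on any array in either genotype, so no ratio is given for them.

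Of the 23 families, 14 had all their measured members called higher, 7 had members both called and not called, and 2, RPL22 and RPL29, had no member that passed. The 14 include RPL37a and RPL39, with 1 measured gene each, so 12 of the 21 families with at least 2 measured genes had all of them called. Of the 21 families with at least 2 measured paralogs, the gap between the highest and the lowest paralog ranged from 0.02 in RPL26 to 0.44 in RPL35, with a median of 0.14. The highest paralog stood above the lowest on 4 of 4 arrays in 11 of these families. Both paralogs were picked by their means over these same arrays, which favours this order, so the count is a description only. An exact two-sided test on the signs of 4 arrays cannot reach 0.05, so these gaps were not tested. Paralogs of a family are alike in sequence, and how far they share hybridisation signal was not tested.

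**Figure D2:**
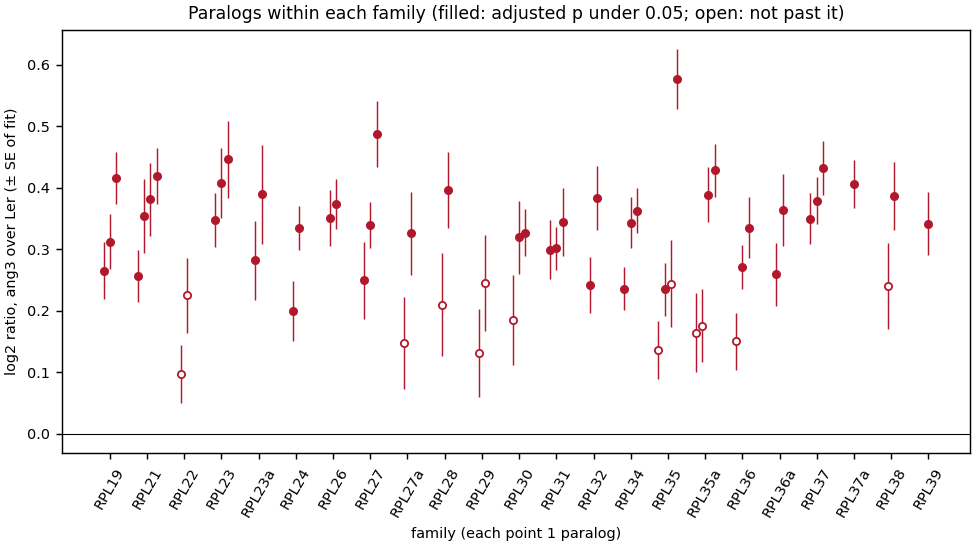
Mean log2 ratio of ang3 over Ler (y axis) for each measured paralog, grouped by family (x axis). Bars are the SE of the limma fit (n = 4 arrays) and filled points have an adjusted p under 0.05. RPL35 holds both the highest ratio, 0.58, and a paralog at 0.14.

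The families around the exit of the peptide tunnel are taken first. RPL35, a protein beside the tunnel exit, held the widest range of all. At2g39390 had the highest ratio of the 58 genes, with 0.45, 0.76, 0.54 and 0.55 on replicates 1 to 4, a mean of 0.58 (SE 0.048, SD 0.13; limma adjusted p = 0.0075) and a 1.49-fold higher level in ang3. All of its arrays lay well above 0, and replicate 2 was the highest. Its paralog At3g09500 also rose, by 0.23, a call lost with Agilent's processed signals (limma adjusted p = 0.077). At5g02610 did not pass, at 0.24 (SE 0.071; limma adjusted p = 0.062). At3g55170 had 0.16, 0.22, 0.14 and 0.01 on replicates 1 to 4, with a mean of 0.14 (SE 0.047; limma adjusted p = 0.093). The gap between At2g39390 and At3g55170 was 0.29, 0.53, 0.40 and 0.54 on replicates 1 to 4, so this pair kept its order on each array, whereas At5g02610 changed places with At3g09500 and At3g55170.

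RPL23a and RPL26 are the other core proteins at this exit, where RPL23a is a docking site for the signal recognition particle. RPL23AB (At3g55280) rose by 0.39 and RPL23AA (At2g39460) by 0.28. Both were lowest on replicate 1, at 0.17 and 0.09, and highest on replicates 2 and 3. Both calls were lost in the authors' deposited series table (limma adjusted p = 0.051 and 0.056), and that of RPL23AA also without the filter on dim probes (limma adjusted p = 0.0503). At5g67510 and At3g49910 of RPL26 rose by 0.37 and 0.35, and their gap of 0.02 was the smallest of any family.

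RPL19, RPL22, RPL31 and RPL39 also lie near the exit, and RPL19 in addition reaches across to the small subunit. Within RPL19, At3g16780 had 0.53, 0.42, 0.40 and 0.32 on replicates 1 to 4 and rose by 0.42 (SE 0.042, SD 0.088; limma adjusted p = 0.0084). At4g02230 rose by 0.31 and emb2386 (At1g02780) by 0.27. The latter was at 0.40 and 0.54 on replicates 1 and 3 and at 0.14 and -0.02 on replicates 2 and 4, so its arrays reached both sides of 0. Without the dye term its call was lost (limma adjusted p = 0.098).

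The measured RPL22 genes had the lowest family median, at 0.16. At5g27770 was the lowest of the 58 genes, with 0.04, 0.21, 0.13 and 0.01 on replicates 1 to 4 and a mean of 0.10 (SE 0.048, SD 0.090; limma adjusted p = 0.19). At3g05560 just missed the threshold at 0.22 (SE 0.061; limma adjusted p = 0.052), and passed without the dye term and under a stricter filter on dim probes (limma adjusted p = 0.045 for both). Both were positive on 4 of 4 arrays. RPL22 is a protein that yeast can lose and still grow. The 3 RPL31 genes At5g56710, At2g19740 and At4g26230 rose by 0.34, 0.30 and 0.30, and RPL39 (At4g31985), a very small protein that lines the tunnel, rose by 0.34.

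**Figure D3:**
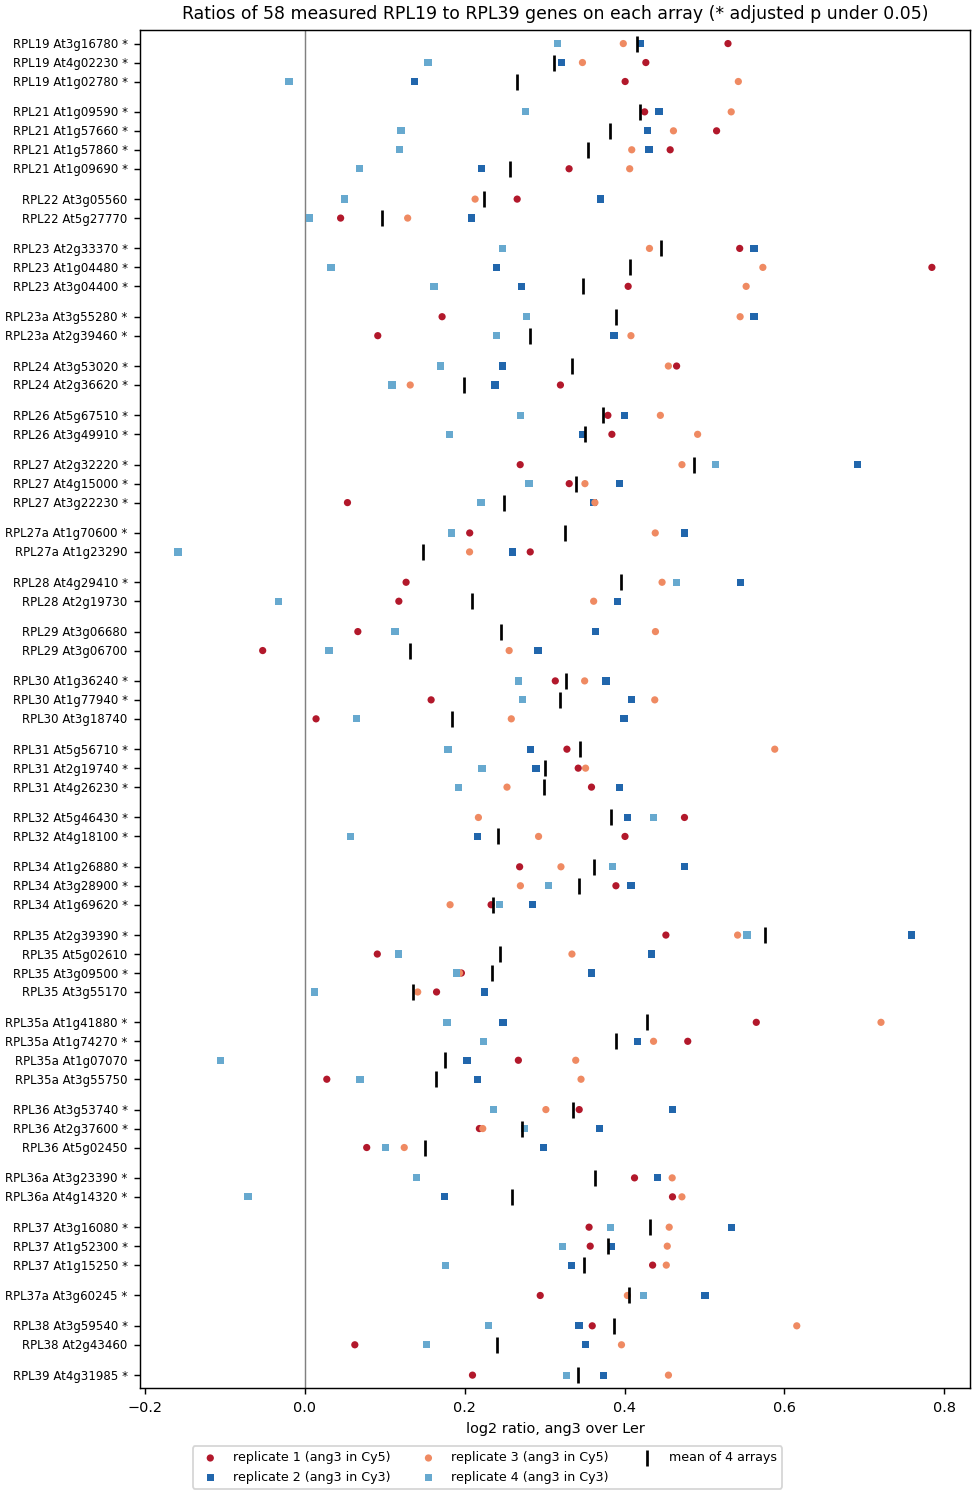
Log2 ratio of ang3 over Ler (x axis) of each of the 58 measured genes (y axis, by family) on replicates 1 to 4, with circles for ang3 in Cy5 and squares for ang3 in Cy3. Black ticks are means of 4 arrays and stars mark an adjusted p under 0.05. Nearly all points lie right of 0, and At2g39390 of RPL35 has the highest mean, 0.58.

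Proteins at the interface with the small subunit include RPL23 and RPL24. RPL23 sits where an anti-association factor docks on the free large subunit, and all 3 of its genes rose. At2g33370 had 0.54, 0.56, 0.43 and 0.25 on replicates 1 to 4 and rose by 0.45 (SE 0.062, SD 0.14; limma adjusted p = 0.013). At1g04480 had 0.78, 0.24, 0.57 and 0.03, with a mean of 0.41 (SE 0.057, SD 0.34; limma adjusted p = 0.013). Its SD was the widest of the 58 genes, and its 2 high arrays were those with ang3 in Cy5. Without the dye term in the fit its call was lost (limma adjusted p = 0.062). The third gene, emb2171 (At3g04400), rose by 0.35.

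RPL24 is known in Arabidopsis for its role in restarting translation after short upstream reading frames, and loss of STV1 shortens the valves of the fruit. STV1 (At3g53020) had 0.47, 0.25, 0.45 and 0.17 on replicates 1 to 4 and rose by 0.33 (SE 0.035, SD 0.15; limma adjusted p = 0.0088). RPL24A (At2g36620) had 0.32, 0.24, 0.13 and 0.11 and rose by 0.20 (SE 0.049, SD 0.098; limma adjusted p = 0.041), the lowest ratio among the genes that passed. This call was lost with Agilent's processed signals (limma adjusted p = 0.15), with a normexp offset of 0, without the filter on dim probes and in the authors' deposited series table. STV1 stood above RPL24A on 4 of 4 arrays, by 0.01 on replicate 2 and by 0.32 on replicate 3.

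RPL36a contacts the end of the tRNA that leaves the ribosome, and mutants of API2 (At4g14320) have pointed leaves. At3g23390 rose by 0.36 and API2 by 0.26 (SE 0.051, SD 0.26; limma adjusted p = 0.025). API2 gave 0.46 and 0.47 on the arrays with mutant RNA in Cy5, and 0.18 and -0.07 on the others. Its call was lost without the dye term (limma adjusted p = 0.11) and with Agilent's processed signals (limma adjusted p = 0.057). The zinc-binding proteins RPL37 and RPL37a rose in each of their measured genes. At3g16080 of RPL37 had 0.36, 0.53, 0.46 and 0.38 on replicates 1 to 4, with a mean of 0.43 (SE 0.044, SD 0.080; limma adjusted p = 0.0084). At1g52300 and At1g15250 rose by 0.38 and 0.35. At3g60245 of RPL37a had 0.29, 0.50, 0.40 and 0.42 and rose by 0.41 (SE 0.039, SD 0.085; limma adjusted p = 0.0081).

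Among the remaining families, RPL27 held the gene with the next highest ratio after RPL35. At2g32220 had 0.27, 0.69, 0.47 and 0.51 on replicates 1 to 4 and rose by 0.49, a 1.40-fold higher level (SE 0.054, SD 0.17; limma adjusted p = 0.0094). At4g15000 and At3g22230 rose by 0.34 and 0.25. At4g15000 had some of the closest arrays, from 0.28 to 0.39, whereas At3g22230 was at 0.05 on replicate 1 and at 0.22 to 0.36 on the others. The call of At3g22230 was lost under 4 of the 8 settings that kept all arrays, with limma adjusted p-values of 0.0502 to 0.064.

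The 4 RPL21 genes rose. At1g09590 had 0.43, 0.44, 0.53 and 0.28 on replicates 1 to 4, with a mean of 0.42 (SE 0.046, SD 0.11; limma adjusted p = 0.0091). At1g57660, At1g57860 and At1g09690 rose by 0.38, 0.35 and 0.26, each with its lowest array on replicate 4.

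RPL35a, RPL28 and RPL27a each had calls on some paralogs only. RPL35a is a protein whose human gene is mutated in a form of inherited anaemia. Its gene At1g41880 had 0.56, 0.25, 0.72 and 0.18 on replicates 1 to 4 and rose by 0.43 (SE 0.043, SD 0.26; limma adjusted p = 0.0084). At1g74270 rose by 0.39. At1g07070 had 0.27, 0.20, 0.34 and -0.11 and did not pass (mean 0.18, SE 0.060; limma adjusted p = 0.089). Nor did At3g55750, with 0.03, 0.22, 0.35 and 0.07 (mean 0.16, SE 0.064; limma adjusted p = 0.12). Arrays of the pair that passed lay between 0.18 and 0.72, so they overlapped those of the pair that did not.

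RPL28 is a protein that budding yeast lacks. At4g29410 had 0.13, 0.55, 0.45 and 0.46 on replicates 1 to 4 and rose by 0.40 (SE 0.062, SD 0.18; limma adjusted p = 0.015). At2g19730 had 0.12, 0.39, 0.36 and -0.03 and did not pass (mean 0.21, SE 0.084; limma adjusted p = 0.13). The paralogs differed by 0.01 on replicate 1 and by 0.50 on replicate 4. For RPL27a, At1g70600, known from a mutant with altered leaves and ovules, rose by 0.33. RPL27AB (At1g23290) had 0.28, 0.26, 0.21 and -0.16 and did not pass (mean 0.15, SE 0.075; limma adjusted p = 0.20). Its value on replicate 4 was the lowest of the 58 genes on any array.

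RPL30 is known in yeast to bind its own transcript. At1g36240 and At1g77940 of this family rose by 0.33 and 0.32. The ratio of At1g36240 was 0.55 with Agilent's processed signals and 0.53 in the authors' deposited series table. At3g18740, which the reference table lists under the symbol RLK902, had 0.01, 0.40, 0.26 and 0.06 on replicates 1 to 4 and did not pass (mean 0.18, SE 0.073; limma adjusted p = 0.12). In RPL36 At3g53740 and At2g37600 rose by 0.34 and 0.27, the latter not with Agilent's processed signals (limma adjusted p = 0.052). At5g02450 had 0.08, 0.30, 0.12 and 0.10 and did not pass (mean 0.15, SE 0.046; limma adjusted p = 0.070).

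Both RPL29 genes failed the test. At3g06700 had -0.05, 0.29, 0.26 and 0.03 on replicates 1 to 4 (mean 0.13, SE 0.072; limma adjusted p = 0.23). At3g06680 had a mean of 0.25 (SE 0.078; limma adjusted p = 0.076). The family was lowest on replicate 1, where the latter had 0.07, and both genes were at 0.26 or more on replicates 2 and 3. Of the RPL38 genes, At3g59540 rose by 0.39, and At2g43460 did not pass (0.24, SE 0.070; limma adjusted p = 0.061) but did with Agilent's processed signals (limma adjusted p = 0.046). RPL38 is known in the mouse for effects on body patterning.

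In RPL32 both genes rose, At5g46430 by 0.38 and At4g18100 by 0.24, the latter not with Agilent's processed signals (limma adjusted p = 0.077). The 3 RPL34 genes rose as well, At1g26880 by 0.36, At3g28900 by 0.34 and RPL34 (At1g69620) by 0.24. The last had the closest arrays of all 58 genes, from 0.18 to 0.28 (SD 0.042), and lost its call with Agilent's processed signals (limma adjusted p = 0.071).

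The order of the genes within the set differed between arrays. Across the 58 genes the ratios of replicates 2 and 4 correlated with r = 0.76 and those of replicates 1 and 3 with r = 0.45, whereas pairs of opposite orientation gave r between 0.02 and 0.24. Over all 20155 genes the pairs of equal orientation gave 0.69 and 0.58, and those of opposite orientation 0.39 to 0.73, with the highest value, 0.73, between replicates 2 and 3. The points share arrays and probes and are not independent replicates. Medians over the genes were 0.34 with ang3 in Cy5 and 0.27 with ang3 in Cy3, and 34 genes had the higher mean in Cy5 and 24 in Cy3. The orientations differed by more than 0.3 for 4 genes, all with the higher mean in Cy5. At1g04480 of RPL23 had 0.68 in Cy5 against 0.14 in Cy3, At1g41880 of RPL35a 0.64 against 0.21, emb2386 of RPL19 0.47 against 0.06, and API2 of RPL36a 0.47 against 0.05. After adjustment the dye term of the fit passed with limma for 0 of the 58 genes and also for 0 of all 20155. Its unadjusted p was under 0.05 for 7 of the 58, against 3020 of 20155 over all genes. A dye effect cannot be told apart here from a difference between replicates 1 and 3 and replicates 2 and 4.

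**Figure D4:**
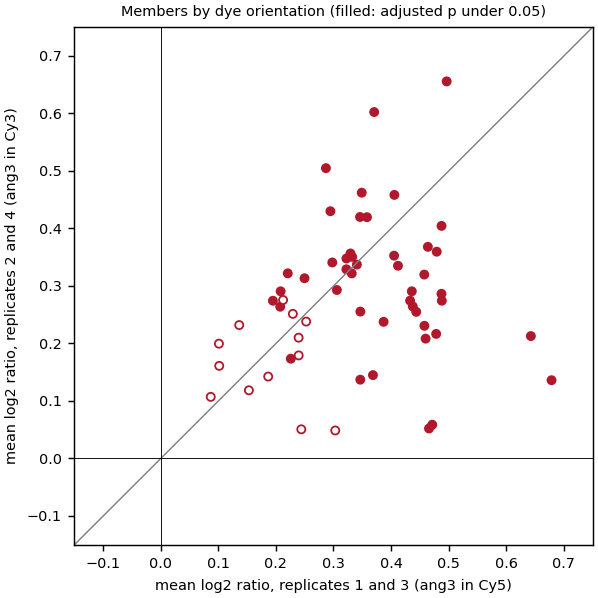
Mean log2 ratio of ang3 over Ler on replicates 1 and 3 (x axis) against that on replicates 2 and 4 (y axis) for the 58 measured genes, filled where the adjusted p is under 0.05, with the line of equality. Every point lies above 0 on both axes, and 4 genes lie more than 0.3 to the right of the line.

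The calls were also counted by probe brightness, with no test of the difference. In the brighter 29 of the 58 genes 27 rose and the median ratio was 0.34, against 18 of 29 and a median of 0.26 in the dimmer 29. Of the 45 genes in the brightest 25% of all tested probes 40 rose, where 18.4% of all 5039 genes of that class rose, 19.2% fell, and the median ratio was 0.004. Of the 13 genes outside that class 5 rose, where 13.8% of all genes there rose. The normexp offset draws the ratios of dim probes towards 0. With an offset of 0, 43 of the 58 genes rose, as did 13.8% of all genes tested. The split by brightness was not counted at that offset, so the part of the offset in it was not tested.

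On single arrays, the authors' deposited tables gave an unadjusted p under 0.05 in the higher direction for 19, 31, 29 and 6 of the 60 probes on replicates 1 to 4, and in the lower direction for 0. The matching share in the higher direction in the authors' deposited tables over all tested genes was 5.57%, 8.36%, 8.69% and 6.57%. The share in the lower direction was not counted. Of the 60 probes in the authors' deposited tables, 11 passed that p in the higher direction on at least 3 arrays, against 4.82% of all tested genes, and 16 on none, against 86.1%. On all 4 arrays, 1 of the 60 passed in the authors' deposited tables, a share near the 2.07% of all tested genes. By the authors' deposited tables, 0 of the 60 probes met both study criteria, an unadjusted p under 0.05 and an absolute log2 ratio above 1, on any array. The matching share of all tested genes was not counted. The highest log2 ratios of the 58 measured genes in the authors' deposited tables were 0.82, 0.77, 0.72 and 0.56. The unmeasured At1g02830 of RPL22 was listed at 1.42 and 1.16 on replicates 1 and 2 in the authors' deposited tables, with unadjusted p-values of 0.23 and 0.29 there and signals not well above background.

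**Figure D5:**
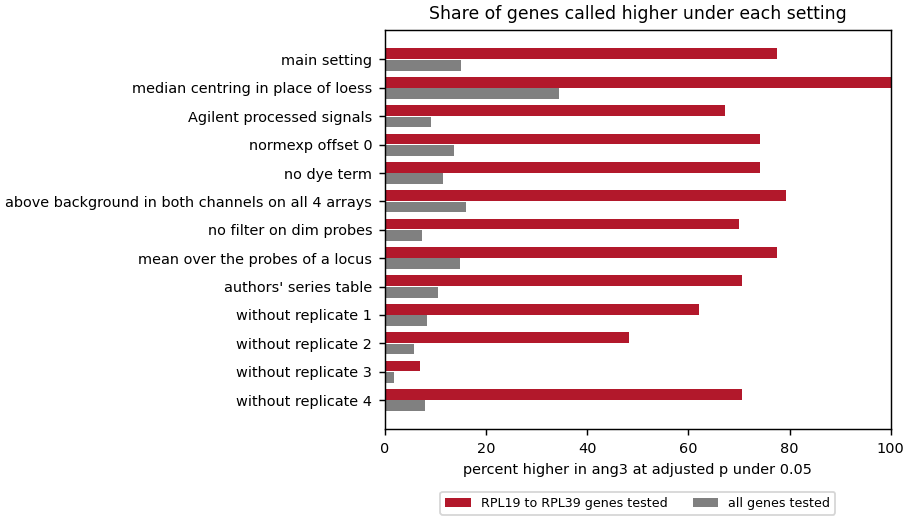
Percent of tested genes called higher in ang3 at an adjusted p under 0.05 (x axis) under each processing setting (y axis), for the RPL19 to RPL39 genes and for all genes. The share is 77.6% against 15% in the main setting and 6.90% against 1.86% without replicate 3.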

How the data were processed

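Each array file held 1 hybridisation of ang3 and Ler RNA. Per the file headers, the authors quantified spots with Agilent Feature Extraction 10.1.1.1. The deposited median spot and background intensity values are not normalized. The deposited processed signals are background-subtracted and dye-normalized per the file headers. The authors' log10 ratio and its p-value come from 1 array at a time. The log2 ratios in the authors' deposited series table matched those of the processed signals, uncentred and in the ang3 over Ler direction.

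With limma 3.58.1 in R 4.3.3, median signals were background-corrected (normexp, offset 50) and ratios loess-normalized within arrays, without control spots and 4 to 12 outlier spots per array. No spot was saturated. The filter kept probes flagged well above background, in at least 1 genotype, on 3 or more arrays, and the brightest of several probes stood for a locus. Ratios of 20155 genes and unnamed probes were fitted with a dye intercept (residual degrees of freedom 2, prior 3.03), with Benjamini-Hochberg adjustment over all of them. SE is that of the fit for a mean of 4 arrays, with the variance moderated by limma, and SD is the spread of the 4 ratios. SE can lie further below SD where the dye term takes up differences between orientations. Levels of markers are channel values after loess and Aquantile. The fit was tested on simulated data.

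The members and gene lists were chosen with earlier results of these data known. The 10 highest and 10 lowest measured members and STV1 are given array by array. Symbols and gene order are from the TAIR10.1 table, and no coordinates are given because the files name no build. Sequences of promoters and proteins were not analysed here. Figures were drawn with matplotlib 3.10.9.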

Additional observations from a re-analysis of the deposited data

Results flagged for a closer look

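Of 60 genes checked, 58 of the families and RPL5A and RPL5B, 3 had 1 array far from the other 3 by Dixon's ratio, where chance gives about 5% of genes. At3g09500 of RPL35 had a ratio of 0.964, with 0.36 on replicate 2 against 0.19 to 0.20 on the others. At1g57860 of RPL21 had a ratio of 0.858, with 0.12 on replicate 4 against 0.41 to 0.46. At3g23390 of RPL36a had a ratio of 0.853, with 0.14 on replicate 4 against 0.41 to 0.46.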

How the results depend on the processing

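The 12 other settings left the median ratio of the RPL19 to RPL39 genes above 0 and called 0 of them lower. They called 162 to 2412 of all genes lower. With median centring in place of loess 6952 of all genes rose and 425 fell, 81 of the small-subunit genes rose, and the members' median was 0.48. With Agilent's processed signals 1837 of all genes rose and 1215 fell, and 34 of the small-subunit genes rose. Leaving out 1 array at a time gave 374 to 1688 higher and 162 to 1219 lower of all genes, below the full counts by over 1.5 times for each array left out. It gave 4 to 41 of the members higher, 2 to 46 of the other large-subunit genes and 4 to 38 of the small-subunit genes. Without replicate 1, 32 of the other large-subunit genes rose, and without replicate 2, 29 of them and 18 of the small-subunit genes. Fits on 3 arrays leave 1 array in a dye orientation, which is assumed to vary like the other arrays, and have fewer residual degrees of freedom. This holds for each array left out. The causes of these moves were not tested. At2g39390, At1g41880, At3g16780 and At5g46430 passed in all 12 settings, and 34 members passed in each of the 8 settings that kept all arrays. How many of all called genes kept their call in this way was not counted. The 8 settings are not independent checks. Each member has 1 probe, so the mean over the probes of a locus could not change its ratio. The other filters on dim probes and the fit without the dye term left the ratios of the 58 genes unchanged and altered only their p-values. No paired analysis was possible because the 4 arrays form 1 group and each array already compares ang3 with Ler.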

Other observations

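Some members lie beside other ribosomal protein genes in the TAIR10.1 gene order. On chromosome 2, At2g19730 of RPL28 and At2g19740 of RPL31 are direct neighbours and stand between At2g19720 of RPS15a and At2g19750 of RPS30. Along this run the log2 ratios were 0.02 for RPS15a (limma adjusted p = 0.72), 0.21 for RPL28, 0.30 for RPL31 and 0.26 for RPS30. On chromosome 4, At4g29410 of RPL28 stands near genes of the same families, with ratios of 0.21 for At4g29390 of RPS30, 0.40 for At4g29410 and 0.15 for At4g29430 of RPS15a. The RPS15a gene had the lowest ratio of each run, a difference that was not tested. The RPL29 genes At3g06680 and At3g06700 lie 2 positions apart, and neither passed.

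The members were spread over the chromosomes. Of the 17 measured on chromosome 1, 15 rose, and 7 of 9 rose on chromosome 2, 13 of 19 on chromosome 3, 7 of 7 on chromosome 4 and 3 of 6 on chromosome 5. The share of all genes that rose on each chromosome was not counted, and differences between chromosomes were not tested. No member lay near RPL5B, the closest being At5g27770 at 624 genes.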
